A study of Arabidopsis thaliana with 4 samples.

Results

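ATP-binding cassette (ABC) transporter genes were followed in 14-day-old Arabidopsis thaliana seedlings of 4 genotypes. They were taken by name, as every gene whose name begins with ABC, a letter from A to I and digits in each of 3 comparison tables. The rule found 109 of 34262 genes, in 8 subfamilies, and values are reported for the 80 whose larger group mean reached 1 RPKM (reads divided by exon length and by library size) in any table. Closest to that limit on its upper side were ABCG21 (1.24 RPKM), ABCA10 (1.29 RPKM) and ABCB13 (1.36 RPKM), and on its lower side ABCG4 (0.659 RPKM), ABCC6 (0.656 RPKM) and ABCA9 (0.460 RPKM). The name ABCC2 stands at 2 positions in the tables: ABCC2_2 lies at the RefSeq locus of ABCC2 and ABCC2_1 at that of ABCD2, and the second was counted with subfamily ABCD.

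The genotypes were hda6, ldl1/2, hda6/ldl1/2 and WT, all in the Col-0 background and grown in long days at 22 °C, with total RNA of the plants sequenced as paired reads of 150 nt. HDA6 encodes a histone deacetylase, and LDL1 and LDL2 encode histone demethylases of the LSD1 type. No label or paper used here names the mutant alleles. GEO lists 1 sample for each genotype and the tables hold group means without values per library, so no spread between replicates is given and each test is that of the authors' deposited tables.

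ABC proteins use the energy of ATP to move substrates across membranes. A full-size transporter carries both of its membrane domains and both of its ATP-binding domains in 1 chain, whereas a half-size transporter must pair with another. Land plants hold a large ABCG subfamily, which secretes lipids of the cuticle, abscisic acid and defence compounds. Full-size ABCB proteins are known for auxin transport and ABCC proteins for loading conjugates and metals into the vacuole, while ABCE and ABCF proteins span no membrane and act with ribosomes.

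In the ldl1/2 group the targeted transcripts LDL1 and LDL2 fell, by 0.79 and 1.17 in log2 per the authors' deposited table. In the hda6/ldl1/2-labelled samples they had log2 fold changes of 0.05 and -0.32, neither past the FDR, per the authors' deposited table, so directions below are given for the samples as labelled. HDA6 rose by 0.53 in hda6 and by 0.59 in the hda6/ldl1/2-labelled samples per the authors' deposited tables. Small group means lay on whole-read steps that correspond to 2 libraries for each mutant and 3 for WT, with 40.2 to 51.6 M reads each. The sources used here do not say whether these libraries came from separate plants, and the deposited p-values may therefore measure technical spread.

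Most ABC transporter genes lay close to the WT level, and ABCG40 stood far below the others. In the authors' deposited table for hda6, 6 of 80 members rose and 4 fell at an FDR under 0.05, against 4.38% of all 18985 expressed genes higher and 4.31% lower. For ldl1/2, 10 of 79 rose and 4 fell per the authors' deposited table, against 4.41% and 4.09% of 18928 genes. For the hda6/ldl1/2-labelled samples, 11 of 80 rose and 13 fell per the authors' deposited table, against 9.59% and 7.82% of 19052 genes. In either direction 10 (12.5%), 14 (17.7%) and 24 members passed, beside 8.69%, 8.50% and 17.4% of all expressed genes. Counts over the subfamilies and lists below stand against these shares. The median log2 fold change of the members was 0.07 in hda6, 0.07 in ldl1/2 and -0.04 in the hda6/ldl1/2-labelled samples, computed from the authors' deposited tables, and that of all expressed genes was -0.01 in each. Altogether 44 of the 80 members passed the FDR in no comparison, 25 in 1, 10 in 2 and 1 gene, ABCG40, in all 3. The comparisons share the WT group, so a gene's values are set side by side below and its repeated calls are not independent.

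**Figure D1:**
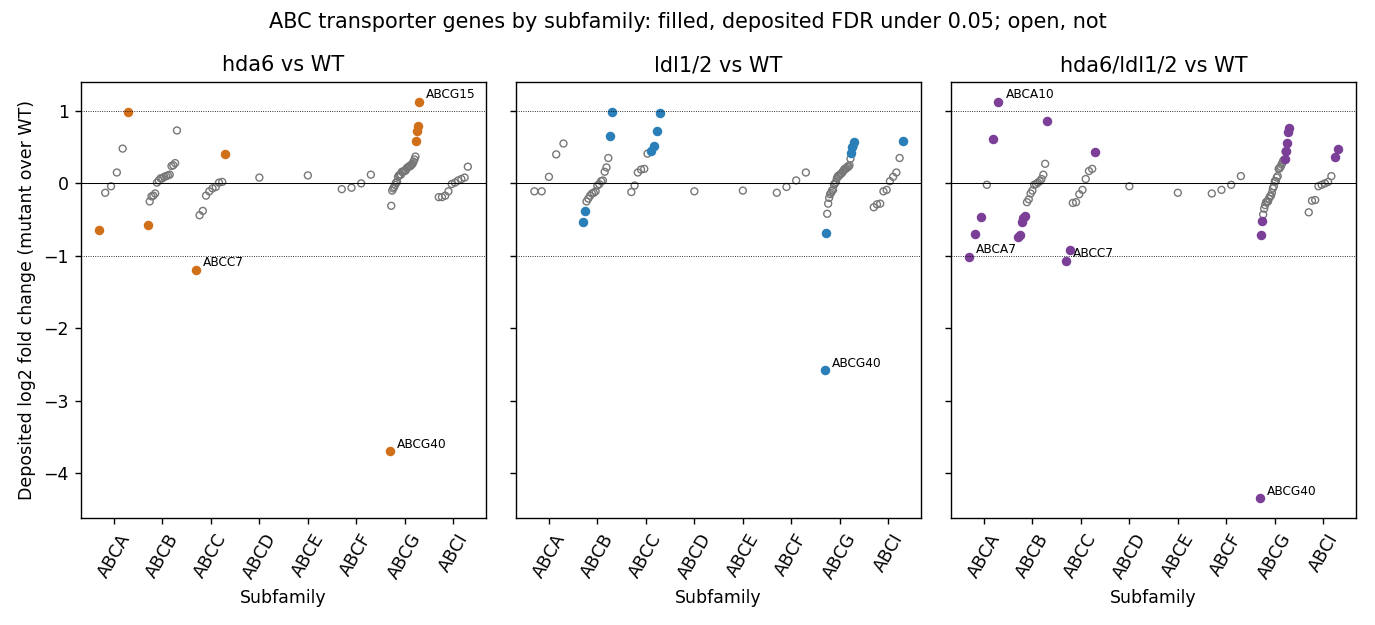
Deposited log2 fold changes (vertical axis, mutant over WT) of the expressed ABC transporter genes, grouped by subfamily (horizontal axis), with 1 panel for each mutant and 1 point for each gene. Filled points passed the deposited FDR, dotted lines mark 1 and -1, and ABCG40 lies at -3.70, -2.58 and -4.35, below all other members.

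Changes past a log2 fold change of 1 or -1 were few. By this rule of size 1 member was higher and 2 were lower in hda6, beside 2.01% and 2.00% of all expressed genes. In ldl1/2 none was higher and 1 was lower, beside 1.70% and 1.46%. In the hda6/ldl1/2-labelled samples 1 was higher and 3 were lower, beside 3.39% and 2.64%. The 5 genes concerned, ABCG40, ABCC7, ABCA7, ABCG15 and ABCA10, also passed the deposited FDR wherever they passed the size rule. Both rules together were passed by 1.86% of all expressed genes higher and 1.78% lower in hda6, by 1.37% and 1.25% in ldl1/2, and by 3.14% and 2.47% in the hda6/ldl1/2-labelled samples. ABCB13 (0.99) and ABCC10 (0.97) in ldl1/2 and ABCA10 (0.98) in hda6 lay just under the limit per the authors' deposited tables. ABCA10, the member counted as higher in the hda6/ldl1/2-labelled samples, and ABCB13 reached the expression filter only through mutant groups. Their WT levels were 0.648 and 0.669 RPKM, so their place among expressed members depends on the increase itself.

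The sequences just before the annotated start of the genes past both rules are shown. These promoter regions lie next to the largest changes among expressed members found by name. Each is the 250 bases upstream of the RefSeq gene start, 5′ to 3′ on the gene's strand, from TAIR10.1 (ABCG40 on chr1:5338327-5338576, minus strand, ABCG15 on chr3:7395097-7395346, minus strand, ABCA7 on chr3:17624090-17624339, plus strand, and ABCA10 on chr5:24808156-24808405, plus strand). Capitals mark matches on either strand to TTGAC, the core of the W-box that WRKY factors bind, to the G-box CACGTG, and to ACGTG, the core of abscisic acid response elements, which overlaps the G-box.
ABCG40: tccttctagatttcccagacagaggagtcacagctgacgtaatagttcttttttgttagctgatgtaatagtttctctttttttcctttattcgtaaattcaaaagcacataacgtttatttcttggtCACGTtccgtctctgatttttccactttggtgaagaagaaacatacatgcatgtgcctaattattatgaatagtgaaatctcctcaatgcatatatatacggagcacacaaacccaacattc
ABCG15: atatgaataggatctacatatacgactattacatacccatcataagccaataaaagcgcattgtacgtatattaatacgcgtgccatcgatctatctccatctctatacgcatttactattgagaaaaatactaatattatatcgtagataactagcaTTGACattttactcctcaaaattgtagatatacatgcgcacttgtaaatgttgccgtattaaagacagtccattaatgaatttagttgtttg
ABCA7: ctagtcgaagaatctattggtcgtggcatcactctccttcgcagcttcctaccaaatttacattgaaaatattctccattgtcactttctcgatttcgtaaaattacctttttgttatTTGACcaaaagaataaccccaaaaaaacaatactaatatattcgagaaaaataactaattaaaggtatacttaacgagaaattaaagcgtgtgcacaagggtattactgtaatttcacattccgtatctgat
ABCA10: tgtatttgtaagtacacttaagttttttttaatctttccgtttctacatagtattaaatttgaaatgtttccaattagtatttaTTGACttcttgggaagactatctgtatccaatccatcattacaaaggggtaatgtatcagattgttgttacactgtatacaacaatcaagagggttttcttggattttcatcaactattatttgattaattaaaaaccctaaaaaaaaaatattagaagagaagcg
The window of ABCC7 overlaps the neighbouring gene AT3G13110 and is not shown. ABCG40 had 1 match to ACGTG and none to TTGAC, and ABCG15, ABCA7 and ABCA10 had 1 match each to TTGAC and none to ACGTG. Among the 80 expressed members the windows of 51.2% held TTGAC, 22.5% ACGTG and 8.75% CACGTG, beside 44.9%, 22.9% and 6.49% of the windows of 27443 nuclear protein-coding genes.

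ABCG40 (AT1G15520, chromosome 1, 5331858 to 5338326, minus strand), a full-size plasma membrane transporter known to import abscisic acid into guard cells, was lowest in the hda6/ldl1/2-labelled samples. Its group level was 0.857 RPKM in hda6, 1.98 RPKM in ldl1/2 and 0.517 RPKM in the hda6/ldl1/2-labelled samples, computed from the authors' deposited tables, against 11.6 RPKM in WT as deposited. These levels rest on about 377.4, 762.6 and 223.8 reads over the mutant groups and 8097.8 over WT. All 3 mutants were thus far under WT, with ldl1/2 the closest to it. The log2 fold changes were -3.70, -2.58 and -4.35 per the authors' deposited tables, each with a p-value and an FDR listed at 0. Among all expressed genes, counted from the lowest log2 fold change, ABCG40 stood at rank 57 of 18985 in hda6, 15 of 18928 in ldl1/2 and 25 of 19052 in the hda6/ldl1/2-labelled samples. In bulk seedlings, fewer cells of a type and less RNA per cell cannot be told apart, here and in every result below.

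**Figure D2:**
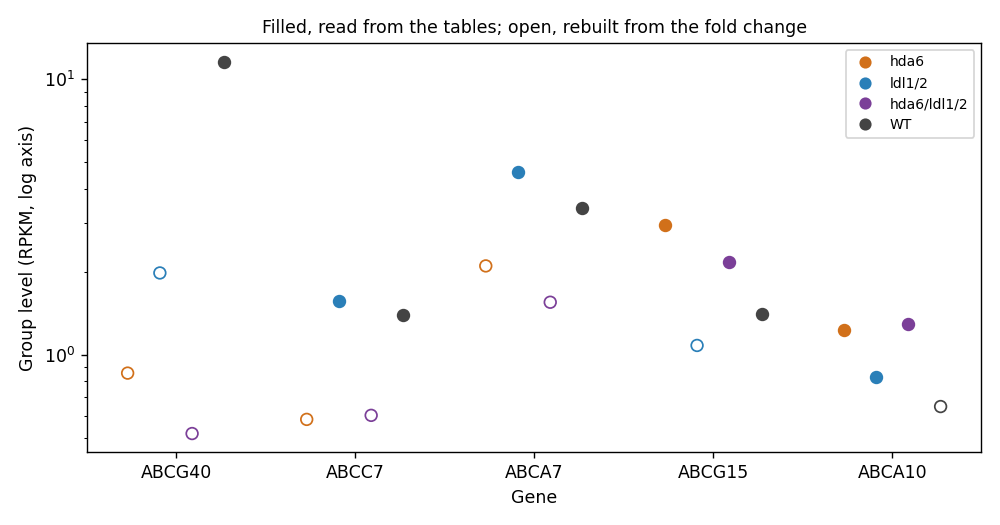
Group levels (vertical axis, RPKM, log axis) of the 5 genes past both the size rule and the FDR (horizontal axis), with points for hda6, ldl1/2, hda6/ldl1/2 and WT from left to right. Filled points were read from the deposited tables and open points rebuilt from the fold change; ABCG40 shows 0.857, 1.98 and 0.517 RPKM in the mutants and 11.6 RPKM in WT.

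Other expressed full-size ABCG genes did not share the depth of this decrease. Of 11 expressed full-size members found by name (ABCG29 to ABCG43), 1 rose and 1 fell in hda6 per the authors' deposited table. None rose and 2 fell in ldl1/2, and none rose and 3 fell in the hda6/ldl1/2-labelled samples, per the authors' deposited tables. These counts include ABCG40, the only one that fell in hda6. Besides ABCG40, ABCG31 fell in ldl1/2, and ABCG35 and ABCG37 fell in the hda6/ldl1/2-labelled samples, per the authors' deposited tables. ABCG36, also called PEN3 and known for resistance to fungal penetration, was the most abundant member of the family, at 193 RPKM in hda6, 209 RPKM in ldl1/2 and 194 RPKM in the hda6/ldl1/2-labelled samples, against 186 RPKM in WT. Its log2 fold changes were 0.12, 0.14 and 0.20 per the authors' deposited tables, with FDR values of 0.925, 0.887 and 0.342. ABCG34, which secretes the phytoalexin camalexin, likewise passed the FDR in no comparison, at 0.16, 0.13 and -0.25 per the authors' deposited tables.

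ABCG37, which exports coumarins and auxin-like compounds from roots, and ABCG35, a close relative of ABCG36, fell in the hda6/ldl1/2-labelled samples. ABCG37 reached 4.66 RPKM there, against 8.34 RPKM in WT, a log2 fold change of -0.71 (FDR 0.00175) per the authors' deposited table. ABCG35 reached 4.16 RPKM there, against 6.54 RPKM in WT, a log2 fold change of -0.52 (FDR 0.0296) per the authors' deposited table. Neither passed the FDR in hda6 or ldl1/2, where the log2 fold changes of ABCG37 were 0.16 and 0.23 and those of ABCG35 0.17 and 0.20 per the authors' deposited tables. Of the defence compound list (ABCG34, ABCG35, ABCG36, ABCG37 and ABCG40), 1 of 5 fell in hda6, 1 in ldl1/2 and 3 in the hda6/ldl1/2-labelled samples, per the authors' deposited tables, beside 4.31%, 4.09% and 7.82% of all expressed genes. The only gene of this list that fell in hda6 or in ldl1/2 was ABCG40, already described. In the hda6/ldl1/2-labelled samples the 3 were ABCG40, ABCG35 and ABCG37.

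Markers of root tissue moved with this comparison. The 16 root markers (Casparian strip, root hair, root tip and phosphate uptake genes) were outside the fixed lists and were added with results of these data known. Of the 13 expressed, 8 fell and none rose in the hda6/ldl1/2-labelled samples per the authors' deposited table, with a median of -0.93. Of all expressed genes 4.31% fell in hda6, 4.09% in ldl1/2 and 7.82% in the hda6/ldl1/2-labelled samples. The summed level of the 16 markers was 49.2 RPKM in the hda6/ldl1/2-labelled samples, against 100.5 RPKM in WT. In hda6 and ldl1/2 it was 91.3 and 101.0 RPKM, against the same 100.5 RPKM in WT, and none of 13 markers passed the FDR in hda6 and 1 fell in ldl1/2 per the authors' deposited tables. None of the 16 was at or near 0 in any mutant. The largest parts of the sum were PHT1;1 and CASP1. They had 30.3 and 20.4 RPKM in WT and 13.9 and 8.21 RPKM in the hda6/ldl1/2-labelled samples. WOX5, below the expression limit, was the only marker above WT in the hda6/ldl1/2-labelled samples, at 0.51 and not past the FDR. What part the shift in root markers had in the decreases of ABCG37 and of other members in the hda6/ldl1/2-labelled samples was not tested.

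The abscisic acid list went both ways. ABCG30, which imports abscisic acid into the embryo, reached 3.48 RPKM in hda6, against 2.20 RPKM in WT, a log2 fold change of 0.72 (FDR 3.30e-05) per the authors' deposited table. It was at 0.07 in ldl1/2 and -0.17 in the hda6/ldl1/2-labelled samples per the authors' deposited tables, neither past the FDR. ABCG30 and its neighbour ABCG42 share 166 bases on the same strand, so reads there cannot be assigned to 1 of them. ABCG22, known to affect stomatal aperture, rose in the hda6/ldl1/2-labelled samples to 6.50 RPKM, against 4.36 RPKM in WT, by 0.71 (FDR 1.84e-07) per the authors' deposited table. ABCG31, which exports abscisic acid from the endosperm, fell in ldl1/2 to 1.13 RPKM, against 1.79 RPKM in WT, by 0.69 (FDR 0.0212) per the authors' deposited table. The exporter ABCG25 stood at 0.22, 0.21 and 0.29 per the authors' deposited tables and passed the FDR in no comparison.

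Of 7 expressed genes of that list, 2 rose and 1 fell in hda6, 1 rose and 2 fell in ldl1/2, and 1 rose and 1 fell in the hda6/ldl1/2-labelled samples per the authors' deposited tables. ABCG40 is also in the abscisic acid list and is counted among the genes that fell in each comparison. It was the only one that fell in hda6 and in the hda6/ldl1/2-labelled samples. Among partners that move the same hormone, DTX50, an abscisic acid exporter of another family, fell in all 3 mutants, by 1.06, 1.55 and 1.31 (FDR 0.0261, 0.000262 and 0.00176) per the authors' deposited tables. Its level was 0.586 RPKM in hda6, 0.444 RPKM in ldl1/2 and 0.468 RPKM in the hda6/ldl1/2-labelled samples, against 1.27 RPKM in WT. The importer NPF4.6 stood at 0.08, -0.15 and -0.03 per the authors' deposited tables. Of all 8 partners in the list, 2 fell in hda6 (DTX50 and the syntaxin gene SYP121), 1 in ldl1/2 and 1 in the hda6/ldl1/2-labelled samples (DTX50 in each), and none rose, per the authors' deposited tables.

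Half-size members (ABCG1 to ABCG28) found by name and expressed numbered 20. Of these, 3 rose in hda6, 3 in ldl1/2 and 5 in the hda6/ldl1/2-labelled samples, and none fell, per the authors' deposited tables. ABCG7, ABCG23 and ABCG27 are listed under other names and are not counted here. Of these, ABCG27 had larger increases than any of the 20, by 3.27 in hda6 and 2.93 in the hda6/ldl1/2-labelled samples per the authors' deposited tables. ABCG27 had 0.170 RPKM in WT and reached the expression filter only through these 2 mutant groups. Among all expressed genes 4.38%, 4.41% and 9.59% rose and 4.31%, 4.09% and 7.82% fell in these comparisons, and the division of the subfamily was made after the values had been seen. ABCG15 (AT3G21090, chromosome 3, 7391286 to 7395096, minus strand) had the largest increase of the 20 members found by name. It had 2.96 RPKM in hda6, 1.08 RPKM in ldl1/2 and 2.17 RPKM in the hda6/ldl1/2-labelled samples, against 1.41 RPKM in WT. Its level was above WT in hda6 and in the hda6/ldl1/2-labelled samples and below WT in ldl1/2. The log2 fold changes were 1.13 (FDR 7.22e-05), -0.42 (FDR 0.605) and 0.76 (FDR 0.0171) per the authors' deposited tables, with implied standard errors of 0.23, 0.25 and 0.24. An implied standard error is the one at which the deposited log2 fold change gives the deposited p-value on a normal scale.

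Among the cutin, wax and suberin genes, ABCG11, which exports cuticular lipids, rose in the hda6/ldl1/2-labelled samples to 30.3 RPKM, against 24.3 RPKM in WT, by 0.45 (FDR 0.00150) per the authors' deposited table. ABCG11 overlaps AT1G17850 on the opposite strand by 596 bases, and whether counting used the strand is not stated. ABCG5, known for the seedling cuticle, also rose there, by 0.34 (FDR 0.0364) per the authors' deposited table. The suberin transporter ABCG6 rose in hda6 and ldl1/2, by 0.58 (FDR 0.00694) and 0.57 (FDR 0.00806), and stood at -0.30 (FDR 0.298) in the hda6/ldl1/2-labelled samples per the authors' deposited tables. Its levels were 5.42 RPKM in hda6, 5.75 RPKM in ldl1/2 and 2.80 RPKM in the hda6/ldl1/2-labelled samples, against 3.78 RPKM in WT. ABCG2, a further suberin transporter, rose in ldl1/2 by 0.42 (FDR 0.0132) per the authors' deposited table and lies opposite a long non-coding RNA gene over 2362 bases. The wax exporter ABCG12 (44.1 RPKM in WT) and the cutin transporter ABCG32 (24.8 RPKM in WT) passed the FDR in no comparison. Of the 10 genes in the list 1 rose in hda6, 2 in ldl1/2 and 2 in the hda6/ldl1/2-labelled samples, and none fell, per the authors' deposited tables.

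ABCG16, known from pollen wall formation, rose in hda6 by 0.79 (FDR 0.00391) per the authors' deposited table, to 2.59 RPKM, against 1.56 RPKM in WT. ABCG19, known to give kanamycin resistance when overexpressed, rose in the hda6/ldl1/2-labelled samples by 0.56 (FDR 3.91e-05) per the authors' deposited table. ABCG18 rose in ldl1/2 by 0.50 (FDR 0.0426) per the authors' deposited table. These genes lie near each other on chromosome 3, in an array with ABCG17, which was below the expression limit. Of 6 pollen wall genes only 3 were expressed, and 1 rose in hda6 and 1 fell in ldl1/2 per the authors' deposited tables. ABCG14, which carries cytokinin to the shoot, stood at 0.18, -0.09 and -0.07 per the authors' deposited tables.

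**Figure D3:**
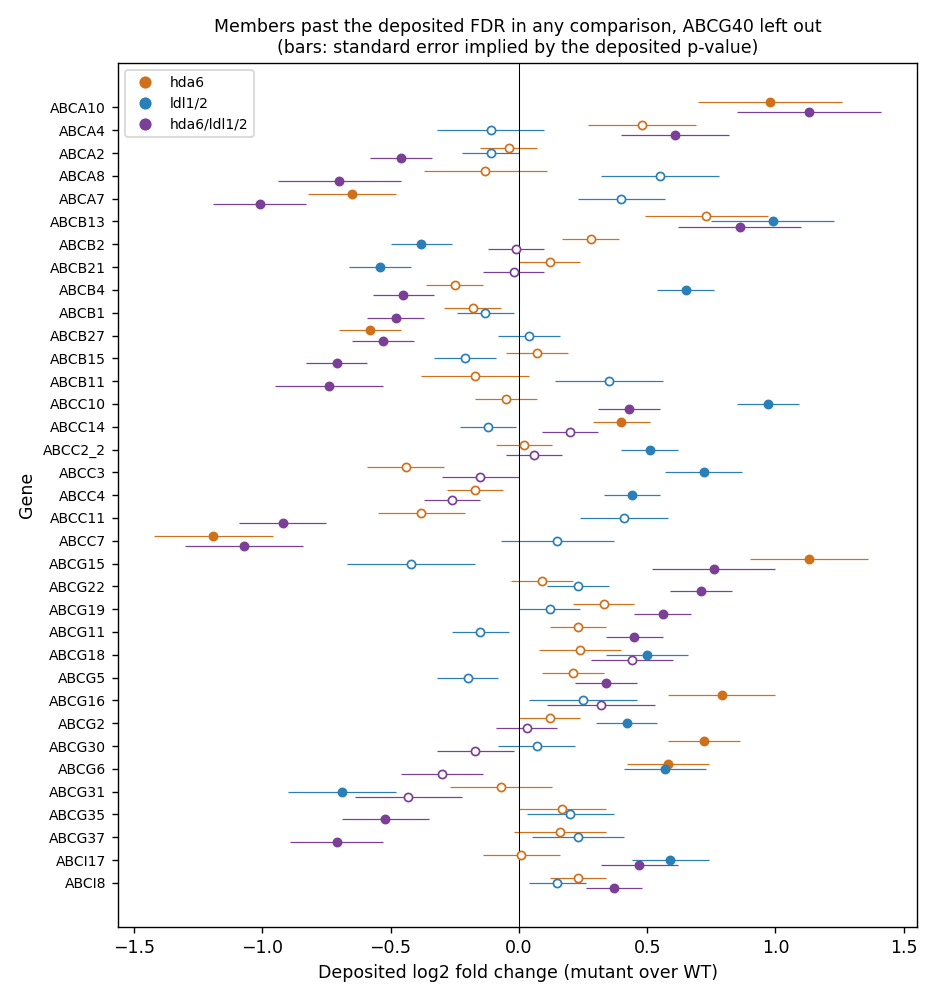
Deposited log2 fold changes (horizontal axis, mutant over WT) of the ABC transporter genes that passed the FDR in at least 1 comparison (vertical axis), without ABCG40, whose standard error could not be computed. Filled points passed the FDR and bars are the implied standard errors; ABCC10 at 0.97 in ldl1/2 and ABCC7 at -1.19 in hda6 lie near the ends of the range.

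Auxin transporters of subfamily ABCB had small changes that differed between mutants. ABCB1 and ABCB19, exporters of auxin in stems and roots, were at 22.3 and 26.1 RPKM in hda6, 24.6 and 24.4 RPKM in ldl1/2 and 17.2 and 20.6 RPKM in the hda6/ldl1/2-labelled samples, against 26.3 and 26.9 RPKM in WT. ABCB1 fell in the hda6/ldl1/2-labelled samples by 0.48 (FDR 0.000512), while ABCB19 stood at -0.26 (FDR 0.145), per the authors' deposited table. ABCB4, an auxin transporter of root hairs, rose in ldl1/2 by 0.65 (FDR 8.23e-07) and fell in the hda6/ldl1/2-labelled samples by 0.45 (FDR 0.00215) per the authors' deposited tables. Its level was 8.75 RPKM in hda6, 17.4 RPKM in ldl1/2 and 7.25 RPKM in the hda6/ldl1/2-labelled samples, against 10.8 RPKM in WT. ABCB21, its close relative, fell in ldl1/2 by 0.54 (FDR 0.000199) per the authors' deposited table, opposite in sign to ABCB4 in the same mutant. Of the 6 auxin transporters none passed the FDR in hda6, 1 rose and 1 fell in ldl1/2, and 2 fell in the hda6/ldl1/2-labelled samples per the authors' deposited tables. TWD1, the partner protein that ABCB1 and ABCB19 need at the plasma membrane, stood at -0.09, 0.06 and -0.11 per the authors' deposited tables.

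Further full-size ABCB genes changed in ldl1/2 and in the hda6/ldl1/2-labelled samples. ABCB15 reached 2.94 RPKM in the hda6/ldl1/2-labelled samples, against 5.26 RPKM in WT, a log2 fold change of -0.71 (FDR 3.59e-07) per the authors' deposited table. ABCB11 fell by 0.74 (FDR 0.00802) and ABCB13 rose by 0.86 (FDR 0.00611) in the same comparison per the authors' deposited table. ABCB13 also rose in ldl1/2 by 0.99 (FDR 0.00171) and stood at 0.73 (FDR 0.0517) in hda6 per the authors' deposited tables, with levels of 1.06, 1.36 and 1.11 RPKM in hda6, ldl1/2 and the hda6/ldl1/2-labelled samples, against 0.669 RPKM in WT. ABCB14, which imports malate into guard cells, passed the FDR in no comparison. ABCB2 fell in ldl1/2 by 0.38 (FDR 0.0250) per the authors' deposited table.

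Of 6 expressed half-size ABCB genes, ABCB27 was the only one past the FDR in any comparison. ABCB27, also called ALS1 and needed for aluminium tolerance, fell to 9.29 RPKM in hda6 and 9.12 RPKM in the hda6/ldl1/2-labelled samples, against 14.5 RPKM in WT. The log2 fold changes were -0.58 (FDR 3.93e-05) and -0.53 (FDR 0.000155), and 0.04 in ldl1/2, per the authors' deposited tables. ABCI17, the ATP-binding part of a second aluminium tolerance transporter, rose in ldl1/2 by 0.59 (FDR 0.00213) and in the hda6/ldl1/2-labelled samples by 0.47 (FDR 0.0184) per the authors' deposited tables. Of the 3 aluminium tolerance genes, 1 fell in hda6, 1 rose in ldl1/2, and 1 rose and 1 fell in the hda6/ldl1/2-labelled samples per the authors' deposited tables. ABCB25, which exports a sulfur compound from mitochondria for iron-sulfur cluster assembly, stood at 0.04, -0.14 and -0.14 per the authors' deposited tables, and neither it nor ABCB23, the other expressed gene of the mitochondrial list, passed the FDR.

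Among ABCC genes the largest change in ldl1/2 was that of ABCC10. Of 10 expressed members found by name 4 rose and none fell in ldl1/2, beside 1 higher and 1 lower in hda6 and 1 higher and 2 lower in the hda6/ldl1/2-labelled samples, per the authors' deposited tables. ABCC8, ABCC12 and ABCC13 are listed under other names and are not counted here. None of them passed the FDR in ldl1/2. ABCC13 rose in hda6, and ABCC13 and ABCC8 rose in the hda6/ldl1/2-labelled samples, per the authors' deposited tables. In ldl1/2 4.41% of all expressed genes rose and 4.09% fell. ABCC10 had 2.50 RPKM in hda6, 5.38 RPKM in ldl1/2 and 3.31 RPKM in the hda6/ldl1/2-labelled samples, against 2.69 RPKM in WT. Its log2 fold changes were -0.05, 0.97 (FDR 1.84e-13) and 0.43 (FDR 0.00587) per the authors' deposited tables. ABCC3, a vacuolar transporter linked to cadmium tolerance, reached 16.2 RPKM in ldl1/2, against 9.55 RPKM in WT, a log2 fold change of 0.72 (FDR 6.91e-05) per the authors' deposited table. The vacuolar phytochelatin transporter ABCC2 (listed as ABCC2_2) rose there by 0.51 (FDR 0.000308) and ABCC4 by 0.44 (FDR 0.00351) per the authors' deposited table. ABCC1, which shares the phytochelatin role, and ABCC5, which loads phytate into the vacuole, stood at 0.19 (FDR 0.606) and 0.20 (FDR 0.537) in ldl1/2 per the authors' deposited table.

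Of the 4 vacuolar genes (ABCC1, ABCC2, ABCC3 and ABCC5), 2 rose in ldl1/2 and none passed the FDR in hda6 or in the hda6/ldl1/2-labelled samples per the authors' deposited tables. ABCC14 rose in hda6 by 0.40 (FDR 0.0113) per the authors' deposited table. ABCC11 fell in the hda6/ldl1/2-labelled samples by 0.92 (FDR 4.81e-06) per the authors' deposited table, to 1.71 RPKM, against 3.55 RPKM in WT.

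ABCC7 (AT3G13100, chromosome 3, 4208729 to 4214530, minus strand) fell in both genotypes with hda6 in their label. Its level was 0.582 RPKM in hda6, 1.56 RPKM in ldl1/2 and 0.602 RPKM in the hda6/ldl1/2-labelled samples, against 1.39 RPKM in WT. The levels of hda6 and of the hda6/ldl1/2-labelled samples lay under WT, and that of ldl1/2 lay just above it. The log2 fold changes were -1.19 (FDR 1.79e-05) and -1.07 (FDR 0.000122) in hda6 and the hda6/ldl1/2-labelled samples, and 0.15 in ldl1/2, per the authors' deposited tables, with implied standard errors of 0.23, 0.23 and 0.22. ABCC7 shares 132 bases with AT3G13110 on the same strand.

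Neighbours in an array could differ in sign. Arrays were formed from members found by name by distance alone, on either strand. With a gap of at most 10 kb between members, 32 of the 109 genes lay in 10 arrays, and 17 of these were expressed. ABCC1 and ABCC11 were not joined, because ABCC12 (listed as ATMRP13), which lies between them, is outside the name rule. ABCC7 lies beside ABCC6 and ABCC3. ABCC6 was below the expression limit, at 0.656 RPKM in hda6, against 0.414 RPKM in WT. In hda6 the log2 fold changes along this array were -0.44 for ABCC3, 0.72 for ABCC6 and -1.19 for ABCC7 per the authors' deposited table, of which only that of ABCC7 passed the FDR. Near-identical neighbours may share reads, and how the authors' counting treated such reads is not stated.

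**Figure D4:**
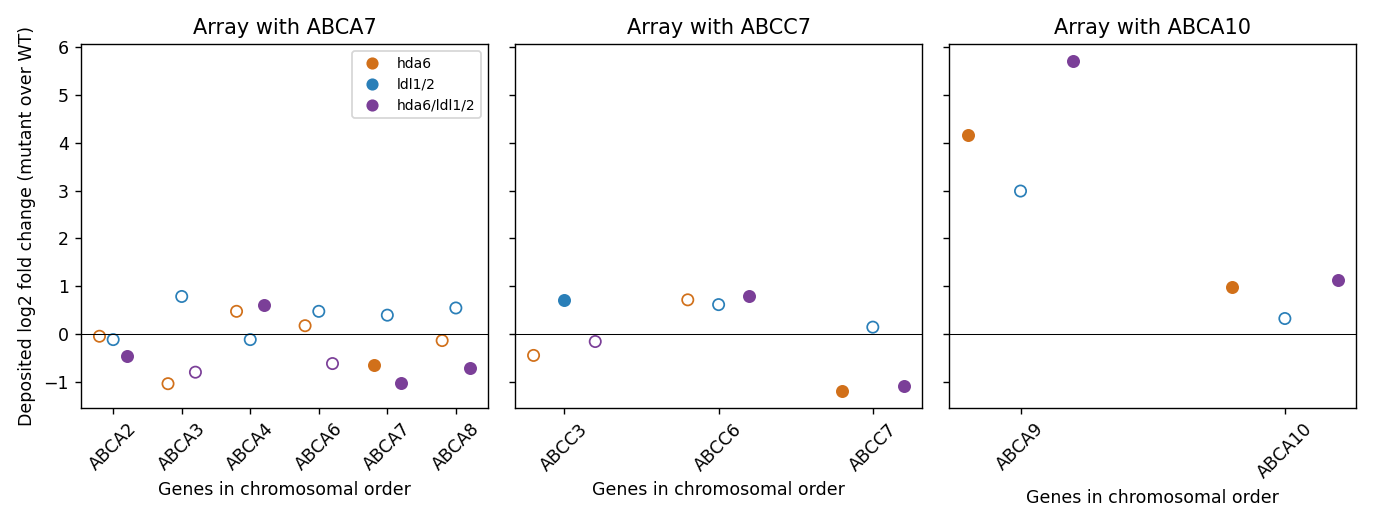
Deposited log2 fold changes (vertical axis, mutant over WT) along 3 arrays of neighbouring members, with genes in chromosomal order (horizontal axis). Genes under 0.1 RPKM in every group are left out. Filled points have a deposited FDR under 0.05; ABCA9 stands at 4.15 in hda6 and 5.71 in hda6/ldl1/2, while ABCA7 is at -0.65 and -1.01.

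The longest array, of 7 genes, holds ABCA2 to ABCA8 on chromosome 3. ABCA7 (AT3G47780, 17624340 to 17629285, plus strand) had 2.10 RPKM in hda6, 4.62 RPKM in ldl1/2 and 1.55 RPKM in the hda6/ldl1/2-labelled samples, against 3.42 RPKM in WT. Its log2 fold changes were -0.65 (FDR 0.00482), 0.40 (FDR 0.200) and -1.01 (FDR 4.73e-07) per the authors' deposited tables. The next gene, ABCA8, fell in the hda6/ldl1/2-labelled samples by 0.70 (FDR 0.0389) and ABCA2, at the other end, by 0.46 (FDR 0.00150), whereas ABCA4 between them rose by 0.61 (FDR 0.0351), per the authors' deposited table. ABCA2 lies opposite a long non-coding RNA gene over 4080 bases. Of 6 expressed ABCA genes 1 rose and 1 fell in hda6, none passed the FDR among 5 in ldl1/2, and 2 rose and 3 fell in the hda6/ldl1/2-labelled samples per the authors' deposited tables.

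ABCA9 to ABCA12 form an array on chromosome 5 in which ABCA10 and ABCA9 were higher. ABCA10 (AT5G61740, 24808406 to 24812739, plus strand) had 1.23 RPKM in hda6, 0.830 RPKM in ldl1/2 and 1.29 RPKM in the hda6/ldl1/2-labelled samples, against 0.648 RPKM in WT. It rose by 0.98 (FDR 0.0105) in hda6 and by 1.13 (FDR 0.00101) in the hda6/ldl1/2-labelled samples, and was at 0.33 in ldl1/2, below the expression limit, per the authors' deposited tables. ABCA9, known to supply fatty acids for seed oil, was singled out after its values were seen and was below the limit in every table. Its level was 0.163 RPKM in hda6, 0.0774 RPKM in ldl1/2 and 0.460 RPKM in the hda6/ldl1/2-labelled samples, against 0.00961 RPKM in WT. These rest on about 47.0, 19.4 and 130.0 reads over the mutant groups and 4.4 over WT. The log2 fold changes were 4.15 (FDR 0.000707), 2.99 (FDR 0.0533) and 5.71 (FDR 1.13e-07) per the authors' deposited tables, with implied standard errors of 0.97, 1.00 and 0.95. ABCA12 was listed at 0 in all tables, and ABCA11 had at most 0.00714 RPKM.

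Of the 29 members under the expression limit, 18 stayed under 0.1 RPKM, among them 4 that were listed at 0 in every table. Besides ABCA9, 2 of them passed the deposited FDR, both in the hda6/ldl1/2-labelled samples. ABCC6 was at 0.79 (FDR 0.0495) there, and ABCG39 at -2.77 (FDR 0.000434), per the authors' deposited table. ABCG39 had 0.0236 RPKM in the hda6/ldl1/2-labelled samples, against 0.176 RPKM in WT, or about 10.2 and 123.3 reads.

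Subfamilies ABCD, ABCE and ABCF had the highest median levels and no gene past the FDR. Median WT levels were 43.7 RPKM for ABCE2, the only expressed ABCE gene, 39.0 RPKM for ABCD2, 32.7 RPKM for 4 ABCF genes, 12.4 RPKM each for 10 ABCI and 10 ABCC genes, 10.8 RPKM for 17 ABCB genes, 5.67 RPKM for 31 ABCG genes and 2.54 RPKM for 6 ABCA genes. None of the 5 expressed ABCE and ABCF genes passed the FDR in any comparison, with log2 fold changes between -0.14 and 0.15 per the authors' deposited tables. ABCI8, ABCI6 and ABCI7, which encode the scaffold complex of plastid iron-sulfur cluster assembly, had 69.6, 47.1 and 44.2 RPKM in WT. ABCI18 (listed as ATNAP4), outside the name rule and these medians, had 91.1 RPKM in WT. ABCI8 rose in the hda6/ldl1/2-labelled samples by 0.37 (FDR 0.0129) per the authors' deposited table, to 82.0 RPKM. Of the 6 plastid genes in that list, which include 3 subunits of the TGD lipid importer that the tables name otherwise, it was the only one past the FDR in any comparison. ABCD2 (listed as ABCC2_1) passed the FDR in no comparison.

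**Figure D5:**
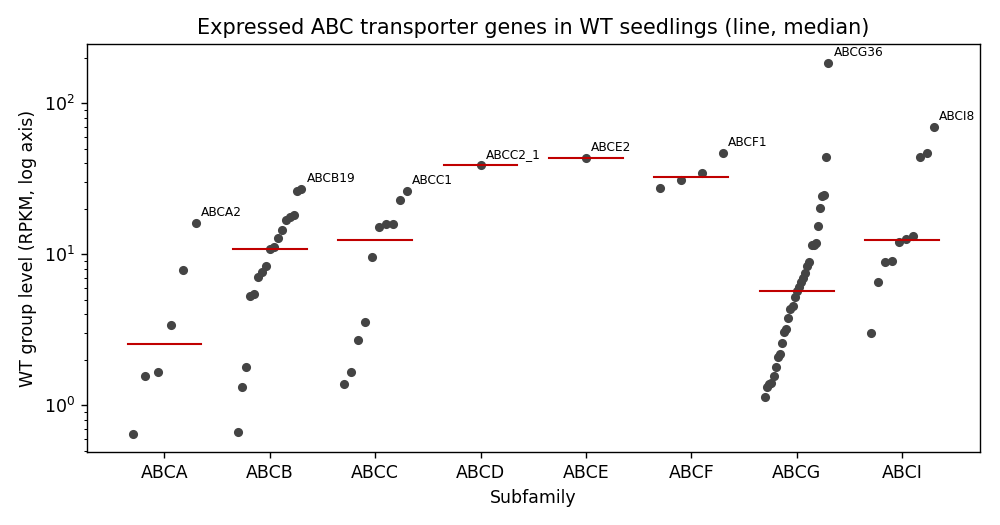
WT group levels (vertical axis, RPKM, log axis) of the 80 expressed ABC transporter genes by subfamily (horizontal axis), with 1 point for each gene and a line at the median. Among these 80, ABCG36 at 186 RPKM is the highest and ABCI8 at 69.6 RPKM follows.

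The median implied standard error was 0.12 for members in each comparison. Against other families of detoxification, the part of expressed genes past the FDR in the hda6/ldl1/2-labelled samples was 24 of 80 for ABC genes, 31.9% for cytochrome P450, 39.5% for glutathione transferase and 22.8% for UDP-glycosyltransferase genes, computed from the authors' deposited table. In hda6 these shares were 12.5%, 19.2%, 39.5% and 15.0%, and in ldl1/2 17.7%, 17.4%, 18.6% and 20.3%. Of all expressed genes 17.4% passed the FDR in the hda6/ldl1/2-labelled samples, 8.69% in hda6 and 8.50% in ldl1/2. The differences between families, and those from all expressed genes, were not tested.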

How the data were processed

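The authors' deposited tables compare each mutant with WT. The authors scaled reads to exon length and library size and deposited, for each gene, whichever group mean was larger (RPKM, a unit read from the values). The authors also deposited a log2 fold change with its p-value and FDR. The authors computed a signed fold change, a score that is not reported here. Bowtie and TAIR10 are named per the submitters' processing notes, and the counting and the test are not given in the sources used here. The deposited FDR equals a Benjamini-Hochberg adjustment over all 34262 genes to within 9.13e-05, with 9357 genes, 4 of them members, lacking a fold change. Values per library were not analysed here, so no test was refitted.

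A larger mean that was identical in 2 tables was taken as the WT mean. Other group means were rebuilt from the log2 fold changes, after removing a constant offset between them and the ratio of RPKM means (0.06 for hda6, -0.03 for ldl1/2 and 0.13 for hda6/ldl1/2). Genes were matched by position to TAIR10.1 (33223 of 34262, and 109 of 109 members). A gene counted as expressed in a comparison when its deposited mean reached 1 RPKM, and low genes pass this filter through the group where they are higher.

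"Rose" and "fell" are used only at a deposited FDR under 0.05. The genes given in full are those past that FDR and a log2 fold change of 1 or -1 in at least 1 comparison, with others from 13 functional lists (74 entries). The members, lists and root markers were chosen with earlier results of these data known. Protein motifs were not searched. Python 3.11.15, pandas 2.3.3, NumPy 2.4.6, SciPy 1.17.1, statsmodels 0.14.6 and matplotlib 3.10.9 were used. Alternatives were other expression filters, a stricter FDR, the RPKM ratio and a pseudocount of 1 on rebuilt means.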

Additional observations from a re-analysis of the deposited data

How the results depend on the processing

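The count of members past the size rule was sensitive to the expression filter and to low levels. It was 3 in hda6, 1 in ldl1/2 and 4 for the hda6/ldl1/2-labelled samples, and without a filter 15, 13 and 19. At 5 RPKM or with a pseudocount of 1 it was 1 in each of the 3 comparisons, ABCG40. In ldl1/2 it was 2 at 0.5 RPKM and 2 under the RPKM ratio. In the hda6/ldl1/2-labelled samples the RPKM ratio gave none higher and 4 lower, in place of 1 and 3, with ABCA10 at 1.00 only after rounding. The count past the deposited FDR was 10, 14 and 24, and at 5 RPKM it was 4 in hda6 and 14 in the hda6/ldl1/2-labelled samples, where fewer genes (55) were tested. The RPKM ratio lowers every log2 value by 0.13 in the hda6/ldl1/2-labelled samples, by construction, and the median of members was then -0.17 in place of -0.04, with 21 members above 0 and 59 below in place of 34 and 46. With a pseudocount of 1, which weighs against low genes, ABCC7 was at -0.59 in hda6 and -0.57 in the hda6/ldl1/2-labelled samples, ABCG15 at 0.71 in hda6, and ABCA7 and ABCA10 at -0.79 and 0.48 in the hda6/ldl1/2-labelled samples. Where a mutant mean could not be read, the RPKM ratio used the rebuilt mean. No paired analysis was possible because the tables hold no values per library, and for the same reason no library could be left out.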

Other observations

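RefSeq annotates a further 18 genes of the tables as ABC transporters under other names, and these are outside the name rule. Of these, 15 were expressed in at least 1 comparison. In hda6 2 of 15 rose and none fell, and in ldl1/2 1 of 14 rose and none fell, per the authors' deposited tables. In the hda6/ldl1/2-labelled samples 3 of 14 rose and 1 fell per the authors' deposited table. Of all expressed genes 4.38%, 4.41% and 9.59% rose and 4.31%, 4.09% and 7.82% fell in these comparisons. AT3G52310 (ABCG27, chromosome 3, 19399188 to 19402981) had 1.58 RPKM in hda6, 0.359 RPKM in ldl1/2 and 1.18 RPKM in the hda6/ldl1/2-labelled samples, against 0.170 RPKM in WT. It rose by 3.27 (FDR 2.11e-14) in hda6 and by 2.93 (FDR 1.29e-11) in the hda6/ldl1/2-labelled samples, and stood at 1.05 (FDR 0.173) in ldl1/2, per the authors' deposited tables. These are larger increases than that of any expressed member found by name, the largest of which was 1.13, and the gene was chosen after its values were seen. AT3G52310 reached the expression filter only through hda6 and the hda6/ldl1/2-labelled samples, so its place among expressed genes depends on the increase itself. ABCC13 (listed as ATMRP11) rose by 0.71 in hda6 (FDR 0.000381) and by 0.56 in the hda6/ldl1/2-labelled samples (FDR 0.00691) per the authors' deposited tables. ABCC8 (listed as MRP6) rose by 0.42 (FDR 0.00325) and ABCI20 (listed as ATNAP9) fell by 0.43 (FDR 0.00424) in the hda6/ldl1/2-labelled samples per the authors' deposited table. ABCG23 (AT5G19410) rose in ldl1/2 by 0.90 (FDR 0.0303) per the authors' deposited table. With 0.961 RPKM in WT, it too reached the filter only through mutant groups. In the cytokinin transport list (ABCC4, ABCG14, ABCI19, ABCI20 and ABCI21), ABCI20 was the only gene that fell and ABCC4 in ldl1/2 the only one that rose.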
